A study of Mus musculus with 9 samples.

Results

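The acetylcholine receptor genes described here are the muscarinic receptors Chrm1, Chrm2, Chrm3, Chrm4 and Chrm5 and the nicotinic subunits Chrna4, Chrna7 and Chrnb2. These 8 genes were chosen by name, with earlier results of these data known. Of these, 7 were among the 31052 gene symbols measured, and Chrm5 was not analysed here. RNA was measured in nuclei of mouse hippocampal pyramidal cells that had been imaged in living animals during navigation and marked with light according to their activity. The 5 place libraries came from place cells, neurons active mainly when the animal is at a given site, and the 4 silent libraries from silent cells. All 9 libraries carry the genotype label WT, and the labels leave strain, age, sex and the number of nuclei per library unstated. Each title names a mouse with a number, and nothing states whether each library is a separate animal, so the p-values below measure only the spread between these libraries.

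Acetylcholine reaches the hippocampus mainly through axons from the medial septum and diagonal band, and it acts there on G protein-coupled muscarinic receptors and on nicotinic ion channels. M1, M3 and M5 (Chrm1, Chrm3, Chrm5) couple to Gq and phospholipase C, and their activation closes the Kcnq potassium channels that carry the M-current, which makes pyramidal cells more excitable. M2 and M4 (Chrm2, Chrm4) couple to Gi and Go, lower cyclic AMP and open inwardly rectifying potassium channels. Chrna4 and Chrnb2 encode the subunits of the common high-affinity heteromeric nicotinic receptor of the brain, whereas Chrna7 forms calcium-permeable receptors largely by itself.

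The promoter windows of the genes differed in their content of CG dinucleotides, the sites of DNA methylation. RefSeq windows of 300 bases, from 250 bases before to 50 bases after the annotated start in the GRCm38.p6 build, were matched for 7 of the 8 genes. Chrm1 had no entry. The 3 windows printed below, each 5′ to 3′ on the gene's own strand with CG in capitals, are those of Chrm3 and Chrnb2, the best measured muscarinic and nicotinic genes with a window, and of Chrna7, whose window held the most CG. The Chrm3 window lies at chr13:10360754-10361053, that of Chrnb2 at chr3:89764583-89764882 and that of Chrna7 at chr7:63212477-63212776, all on the minus strand, and each spans the first bases of the transcript.
Chrm3: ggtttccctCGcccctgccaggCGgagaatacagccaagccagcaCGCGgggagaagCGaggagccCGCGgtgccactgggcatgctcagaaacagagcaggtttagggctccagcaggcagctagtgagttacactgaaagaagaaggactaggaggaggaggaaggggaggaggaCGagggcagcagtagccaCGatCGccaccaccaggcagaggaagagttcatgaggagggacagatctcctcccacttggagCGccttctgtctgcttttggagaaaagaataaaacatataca
Chrnb2: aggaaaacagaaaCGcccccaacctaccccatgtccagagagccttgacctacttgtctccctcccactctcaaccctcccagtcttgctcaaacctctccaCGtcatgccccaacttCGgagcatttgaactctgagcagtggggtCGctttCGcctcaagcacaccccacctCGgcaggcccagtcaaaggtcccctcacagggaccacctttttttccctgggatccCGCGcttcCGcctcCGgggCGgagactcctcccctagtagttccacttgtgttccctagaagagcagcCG
Chrna7: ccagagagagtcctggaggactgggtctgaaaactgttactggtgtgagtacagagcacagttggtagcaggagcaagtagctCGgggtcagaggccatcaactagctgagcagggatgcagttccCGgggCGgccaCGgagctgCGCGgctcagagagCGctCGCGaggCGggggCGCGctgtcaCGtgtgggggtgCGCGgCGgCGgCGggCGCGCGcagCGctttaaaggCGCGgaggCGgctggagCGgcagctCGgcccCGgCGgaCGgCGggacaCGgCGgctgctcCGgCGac
Chrna7 had 35 CG, Chrna4 33, Chrm4 30, Chrm2 16, Chrnb2 12, Chrm3 11 and Chrm5 3, beside a median of 7 over 32851 promoter windows of the same length. At least 20 CG were present in 26.5% of all windows, and Chrna7, Chrna4 and Chrm4 were among these. The windows of Chrm3 and Chrnb2, the genes of these 6 measured ones with the most reads, held fewer CG than those of Chrna7, Chrna4, Chrm4 and Chrm2. This is a description, and no relation between CG and level was tested. The TATA motif TATAAA and the cyclic AMP response element TGACGTCA, searched on both strands, were in none of the 7 windows and in 13.6% and 1.79% of all windows, respectively.

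Whole reads could be worked back from the deposited values, and levels are given as reads per 1000000 recovered reads of the library (RPM), which scales each library to a common total. Libraries held 14043021 to 22361378 reads and 14167 to 20976 detected genes, both lowest in silent library 1. Of 6 pyramidal markers, Slc17a7, a vesicular glutamate transporter, lay between 319.7 and 611.2 RPM and Camk2a between 802.6 and 1422 RPM. The 6 summed to 1792 RPM in place library 3, the lowest sum, and to 3043 RPM in silent library 3, the highest. Place library 3 also had the lowest sum of 7 CA1 pyramidal markers, 524.7 RPM against up to 1130 RPM in place library 4. Its astrocyte sum of 2375 RPM and oligodendrocyte sum of 3231 RPM were above its pyramidal sum. Silent library 1, silent library 4 and place library 3 had the largest absolute scores on principal components 1, 2 and 3 in turn. Place library 1 had the largest on component 4. These components held 22.84, 16.59, 15.73 and 14.3% of the variance. Some library always has the largest score, and no gap to the others was measured. RNA of other cell types was uneven: 7 astrocyte markers summed to 2375 RPM in place library 3 against 173.2 to 507.6 elsewhere, 11 interneuron markers summed to 1324 RPM in silent library 3 against 222 to 560.3 elsewhere, and 10 oligodendrocyte markers ranged from 119.6 to 3231 RPM. Transcripts of Y-linked genes were present in all 4 silent libraries and in place library 1 alone among the place libraries, so sex and class largely cannot be told apart. In these bulk libraries, fewer cells expressing a gene and less RNA per cell cannot be told apart either.

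Chrm1 and Chrm3, the Gq-coupled pair, were the 2 acetylcholine receptor genes with more than 10 RPM in all 9 libraries. Chrm1, the main muscarinic receptor of pyramidal cells, was at 32.06, 60.42, 80.41, 95.47 and 58.48 RPM in place libraries 1 to 5 and at 51.06, 59.95, 98.94 and 84.74 RPM in silent libraries 1 to 4. Its lowest value was in place library 1 and its highest in silent library 3, and the groups overlapped over most of their range. Chrm3 was at 141.0, 72.52, 50.12, 28.26 and 49.77 RPM in the place libraries and at 36.96, 45.30, 62.65 and 44.32 RPM in the silent ones. Both its extremes were place libraries, so that the silent values fell entirely inside the range of the place values. Chrm1 varied 3.086-fold from its lowest to its highest library and Chrm3 4.988-fold. The coefficient of variation (SD divided by mean) of Chrm1 was 0.3209, and 14.48% of the 2480 genes within 0.5 log2 of its level varied less. For Chrm3 it was 0.5659, and 68.47% of 2556 genes of similar level varied less.

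**Figure D1:**
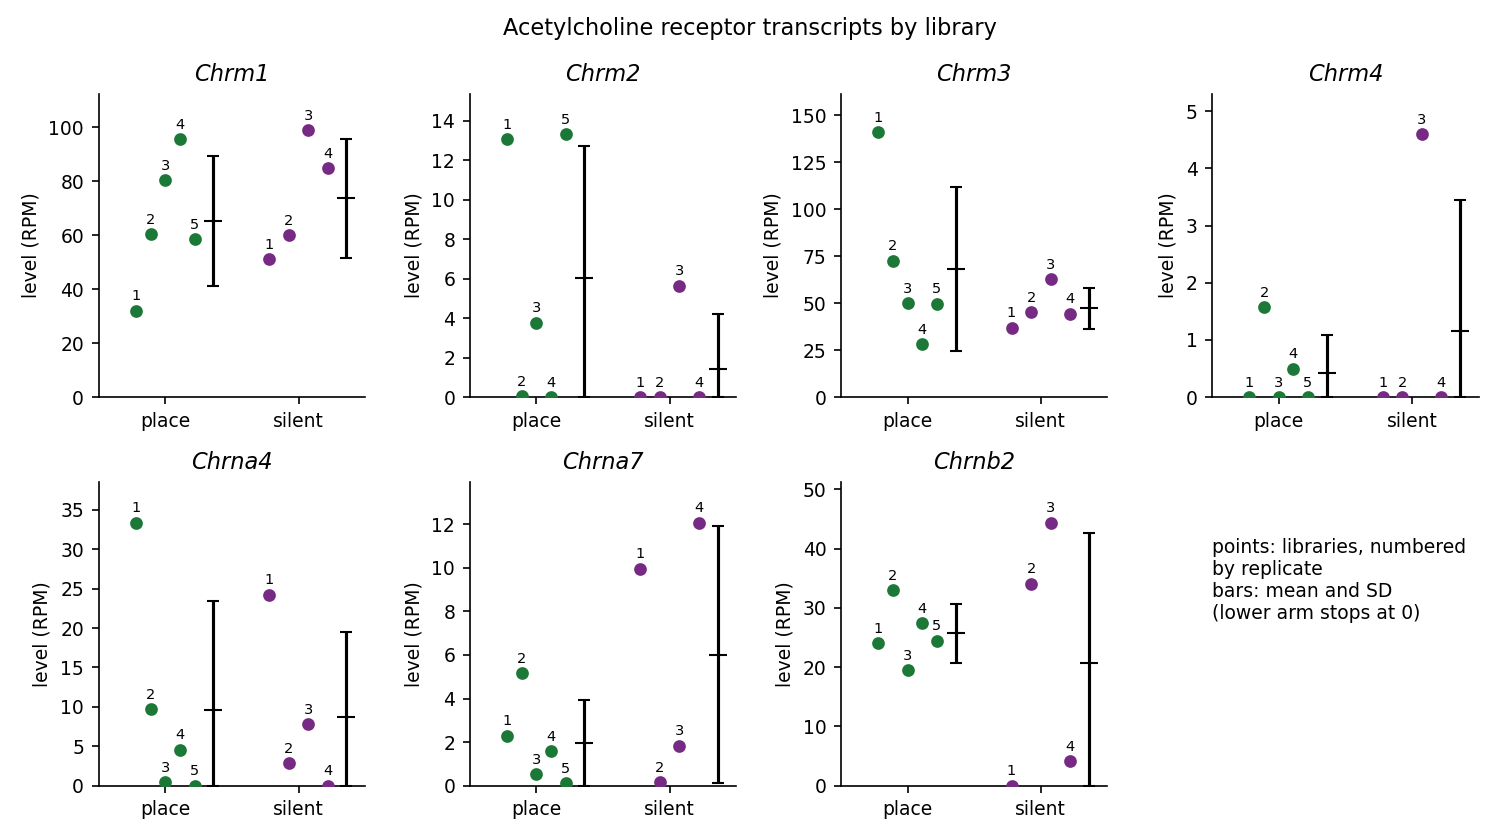
RPM of the 7 measured acetylcholine receptor genes in each of the 9 libraries, with place and silent libraries as separate points and the mean ± SD of each group. Chrm1 and Chrm3 had reads in all libraries, and the groups overlapped for all 7 genes.

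The balance between Chrm1 and Chrm3 differed most among place libraries. Chrm1 made up 17.23, 44.9, 59.88, 76.85 and 48.1% of all muscarinic reads in place libraries 1 to 5, and 58.01, 56.96, 57.58 and 65.66% in silent libraries 1 to 4. With 1236 to 2886 muscarinic reads per library, the exact 95% binomial (Clopper-Pearson) interval was 15.86 to 18.67% in place library 1 and 75.22 to 78.42% in place library 4, so these libraries differed by far more than counting error, which is all that the intervals cover. Chrm3 led in place libraries 1 and 2, at 75.75 and 53.89% of muscarinic reads, and Chrm1 led in the other 7. The log2 ratio of Chrm1 to Chrm3 reads averaged 0.05 over the 5 place libraries with an SD of 1.43, and 0.62 over the 4 silent libraries with an SD of 0.24. The difference of -0.56 was within the spread of the place libraries (two-sided exact permutation test over 126 splits, p = 0.5714). Together, Chrm1 and Chrm3 accounted for 89.04 to 99.6% of muscarinic reads in place and 94.04 to 100% in silent libraries.

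**Figure D2:**
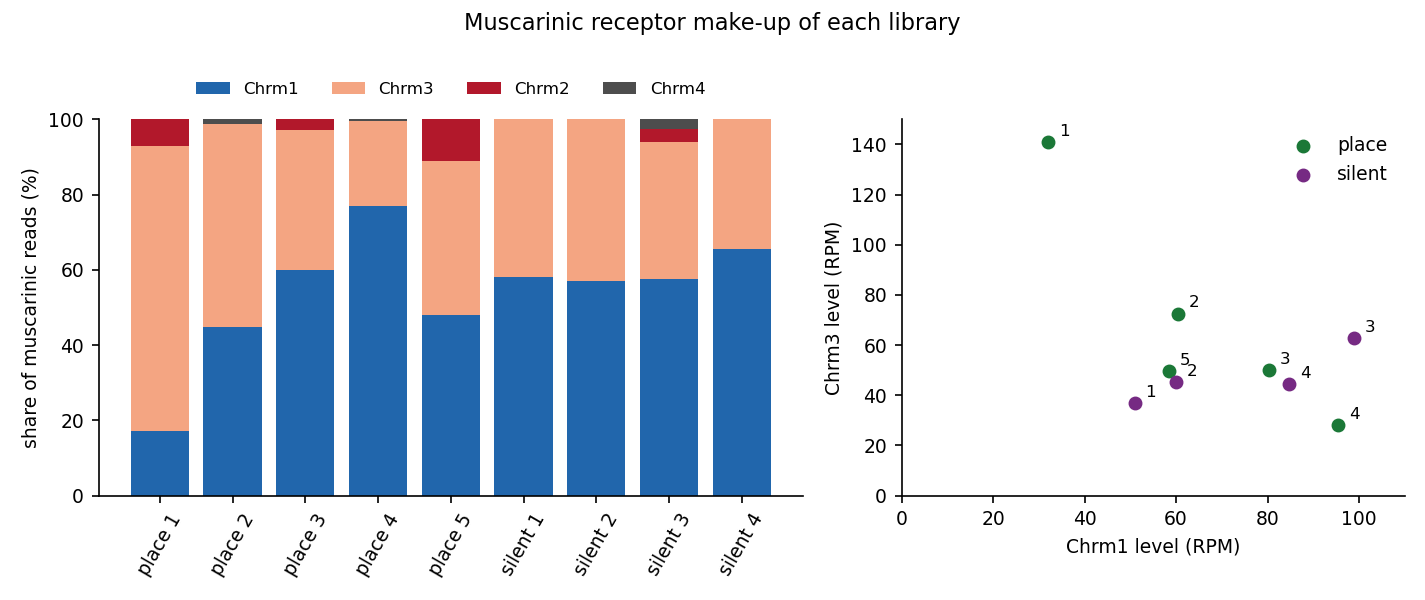
Share of muscarinic reads (percent, stacked to 100) from Chrm1, Chrm2, Chrm3 and Chrm4 in each library (left), and RPM of Chrm3 against RPM of Chrm1 with 1 numbered point per library (right). The Chrm1 share ranged from 17.23 to 76.85% among place and from 56.96 to 65.66% among silent libraries, and place library 1 stood alone on the right with the highest Chrm3 and the lowest Chrm1.

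The Gi/o-coupled receptors were low and patchy. Chrm2, known mainly as a receptor of cholinergic terminals and interneurons, was at 13.06, 0.05815, 3.767, 0 and 13.32 RPM in the place libraries and at 0, 0, 5.64 and 0 RPM in the silent ones. The value in place library 2 was a single read, so that Chrm2 exceeded 3 reads in 3 of 5 place and 1 of 4 silent libraries. By counting error alone, a count of 0 allows up to 3 reads, which is 0.2136 RPM in silent library 1, the shallowest. This bound does not cover RNA lost before sequencing, so the level in the cells may have been higher. Chrm4, the other Gi/o-coupled receptor, had 27 reads (1.57 RPM) in place library 2, 11 reads (0.5006 RPM) in place library 4, 75 reads (4.598 RPM) in silent library 3 and none in the other 6. Silent library 3 was thus the single silent library with Chrm2 or Chrm4 reads. The same library held 643.8 RPM of the interneuron peptide Vip, which had reads in just 1 other library, place library 2, at 8.723 RPM. Sst, another interneuron marker, was at 0 in silent library 3. It was highest in silent library 2, at 107.4 RPM, where Chrm2 and Chrm4 had no reads. Pvalb, also an interneuron marker, was at 2.636 RPM in silent library 3 and highest in place library 3, at 12.87 RPM. The part of interneurons in the Chrm2 and Chrm4 values was not tested. In place libraries 1, 3 and 5, the 3 other libraries with more than 3 Chrm2 reads, the 11 interneuron markers summed to 236.4, 557 and 560.3 RPM. The last 2 of these were the highest sums after silent library 3. Next came place library 2, at 469.7 RPM with 1 Chrm2 read, and silent library 2, at 448.5 RPM with 0. Of the defining markers, Slc32a1, the vesicular GABA transporter, was at 0 in place libraries 1, 3 and 5. It had reads in place library 2 (8.955 RPM), silent library 2 (2.043 RPM) and silent library 3 (12.81 RPM). Gad1, a GABA-synthesizing enzyme, was at 20.83, 181.4 and 39.69 RPM in place libraries 1, 3 and 5. Gad2, the other such enzyme, was at 0, 0 and 97.96 RPM in them. In place library 2, Gad1 was at 144.6 RPM and Gad2 at 18.9 RPM.

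Among Chrna4, Chrna7 and Chrnb2, the coefficient of variation was lowest for Chrnb2, at 0.6026 against 1.285 for Chrna4 and 1.183 for Chrna7. Of genes within 0.5 log2 of its level, 31.43% varied less than Chrnb2, and the shares were 31.35% for Chrna7 and 71.18% for Chrna4. Chrnb2, the beta subunit that assembles with Chrna4, was at 24.09, 33.03, 19.46, 27.39 and 24.46 RPM in the place libraries and at 0, 34.09, 44.38 and 4.159 RPM in the silent ones. All place values lay between the silent extremes, with silent libraries 2 and 3 above every place library and silent libraries 1 and 4 below. The SD of Chrnb2 was 4.99 RPM around a mean of 25.7 in place libraries (n = 5) and 21.9 around 20.7 in silent libraries (n = 4), and this difference in spread was not tested. Silent library 1, where Chrnb2 had no reads, also had the fewest reads and detected genes. The annotated exons of Chrnb2 overlap those of Adar, an RNA-editing enzyme on the opposite strand, by 1014 bases, and no source used here gives the strand setting of the counting. Reads of that stretch cannot be told apart without it, nor can those of shorter opposite-strand overlaps of Chrm1 (329 bases), Chrm2 (133), Kcnq5 (167) and Kcnj6 (380) with predicted or noncoding genes. Adar was at 28.98 RPM in silent library 1, so it had reads where Chrnb2 had none.

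Chrna4 and Chrna7 varied widely from library to library. Chrna4, the partner of Chrnb2, was at 33.36, 9.711, 0.4185, 4.551 and 0 RPM in place libraries 1 to 5 and at 24.21, 2.841, 7.785 and 0 RPM in silent libraries 1 to 4. Place library 1 and silent library 1 were high and the groups overlapped throughout. Without place library 1 the place mean fell from 9.61 to 3.67 RPM, and without silent library 1 the silent mean fell from 8.71 to 3.54 RPM. Chrna7, the homomeric subunit, had reads in all 9 libraries, at 2.285, 5.176, 0.5232, 1.593 and 0.1061 RPM in place and 9.969, 0.1495, 1.839 and 12.07 RPM in silent libraries. Its highest value was 113.8 times its lowest, and the highest pair, silent libraries 1 and 4, were the libraries in which Chrnb2 was lowest. In place library 5 and silent library 2 Chrna7 did not exceed 3 reads. Of the reads of Chrna4, Chrna7 and Chrnb2 alone, not counting other subunits or dividing by length, most came from Chrna4 in place library 1 and silent library 1, from Chrna7 in silent library 4 and from Chrnb2 in the other 6. Summed over the 3 genes, nicotinic reads came to 20.4 to 59.74 RPM in place and 16.23 to 54.01 RPM in silent libraries, below the muscarinic sum of the same library in all 9.

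**Figure D3:**
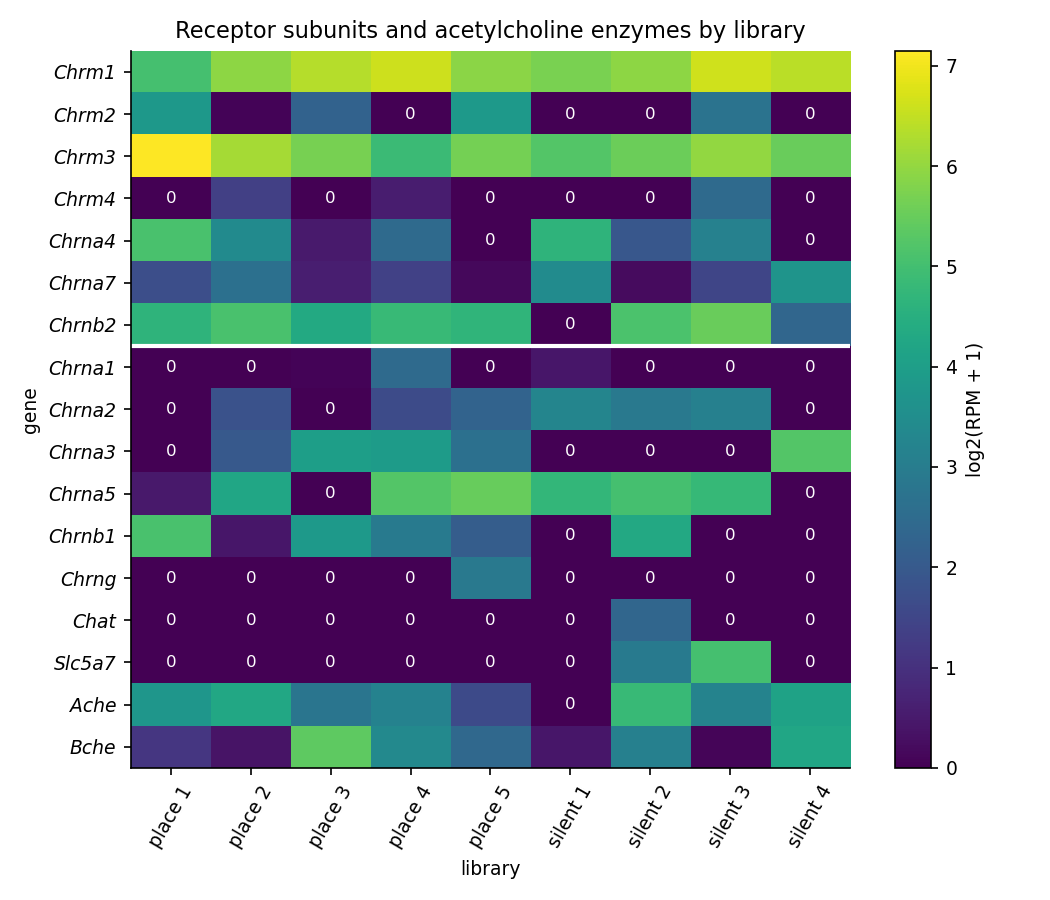
Level, as log2(RPM + 1), of the measured acetylcholine receptor genes (above the white line) and of other nicotinic subunits and genes of acetylcholine metabolism (below it) in each library, with 0 written where a gene had no reads. Chrm1 and Chrm3 were above 10 RPM in all columns, whereas each nicotinic subunit shown except Chrna7 was at 0 in at least 1 library.

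Levels of different genes were compared per kilobase of annotated exons, which ran from 1.44 kb in Chrm4 to 8.38 kb in Chrnb2. The order of the means over the 9 libraries was Chrm1 at 10.65, Chrm3 at 9.433, Chrnb2 at 2.799, Chrna4 at 1.834, Chrna7 at 0.8315, Chrm2 at 0.6579 and Chrm4 at 0.5145 RPM per kb. One step in this order exceeded the spread between libraries: Chrm3 was above Chrnb2 in 9 of 9 libraries, by 2.14 ± 1.73 on the log2(RPM per kb + 0.1) scale (SD, n = 9; two-sided exact sign-flip permutation test, p = 0.003906, the smallest that 9 libraries can give, Benjamini-Hochberg adjusted p = 0.02344 over 6 neighbouring pairs). Chrm1 was above Chrm3 in 7 of 9 libraries by 0.25 ± 1.055 on that scale (SD, n = 9; exact adjusted p = 0.5938). The steps from Chrnb2 down to Chrm4 did not pass either, each with an exact adjusted p of 0.5938 and the upper gene higher in 7, 6, 5 and 3 of 9 libraries in turn. Which genes were neighbours was read from the same values that were tested, so these p-values are not those of pairs set in advance. Among all genes, mean RPM not divided by length placed Chrm1 above 88.12%, Chrm3 above 86.19%, Chrnb2 above 74.91% and Chrm4 above 40.74% of the genes in the table. The annotated exons of Chrm4 are nearly all coding, 1440 bases against 1437 of coding sequence, so its value per kb rests on a length almost without untranslated ends.

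**Figure D4:**
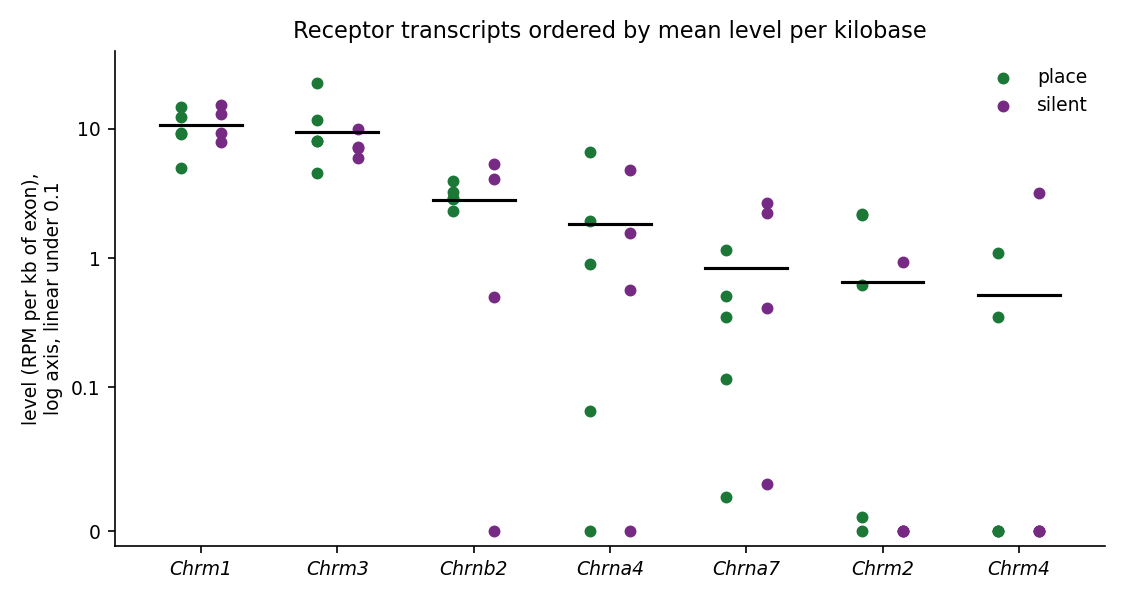
RPM per kb of annotated exon for each acetylcholine receptor gene in order of its mean, on an axis that is logarithmic above 0.1 and linear below, with 1 point per library, place and silent libraries in separate colours and a line at the mean. The means of Chrm1 and Chrm3, 10.65 and 9.433, lay above those of the nicotinic genes, of which Chrnb2 had the highest, 2.799. Single points overlapped, with Chrna4 at 6.644 and Chrm1 at 4.942 in place library 1.

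The design asks whether place and silent cells differed, and none of the 6 tested receptor genes passed that test. In limma across 15217 genes, 0 genes (0%) had an adjusted p under 0.05, 766 (5.03%) had an unadjusted p under 0.05, and 289 (1.9%) had groups that did not overlap. By direction, 3.76% of tested genes had an unadjusted p under 0.05 and were higher in place and 1.27% lower, and 1.29% lay wholly higher in place and 0.611% wholly lower. As alternatives, limma with voom weights called 4 genes, and limma with Y-linked transcripts as a covariate called 225, in a fit where place library 1 is the one place library with them. None of the 6 tested receptor genes was among any of these, and the 7 measured ones all had overlapping groups. The median log2 fold over all tested genes was 0.20, with 58.94% above 0. On the log2(signal + 1) scale, place minus silent, Chrm1 differed by -0.21 ± 0.41 (SE; limma adjusted p = 0.9408) and Chrm3 by 0.35 ± 0.48 (SE; limma adjusted p = 0.9084). Their 95% intervals as folds were 0.467 to 1.59 for Chrm1 and 0.615 to 2.64 for Chrm3. These intervals give the folds compatible with the fit, without adjustment over genes, and they are not limits of detection. Leaving out silent library 3 brought the Chrm1 difference to -0.06, within a leave-one-out range of -0.37 to 0.02 for that gene. Without place library 1 the differences became 0.02 for Chrm1 and 0.03 for Chrm3. With Y-linked transcripts as a covariate they were -1.15 ± 0.59 (SE; limma adjusted p = 0.7584) and 1.602 ± 0.67 (SE; limma adjusted p = 0.5618), both outside the intervals above.

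The other receptor genes had much wider errors, and each had 1 or more libraries at or under 3 reads. Chrm2, Chrna4 and Chrnb2, 3 of the 6 tested receptor genes, had no reads in at least 1 library, as did 41.9% of all tested genes. Chrm2 differed by 3.11 ± 2.32 (SE; limma adjusted p = 0.8624), and its level was 6.04 ± 6.70 RPM over the 5 place and 1.41 ± 2.82 RPM over the 4 silent libraries (SD). Chrnb2 differed by 2.95 ± 1.95 (SE; limma adjusted p = 0.8624), although the ratio of its mean levels was 1.24. Without silent library 1 its log2 fold was 0.45. Chrna7 differed by -1.24 ± 1.98 (SE; limma adjusted p = 0.9235), with means of 1.94 ± 2.00 RPM in place and 6.01 ± 5.89 RPM in silent libraries (SD, n = 5 and 4). Chrna4 differed by -0.17 ± 2.50 (SE; limma adjusted p = 0.9954) and its sign turned when any of 4 libraries was left out. Chrm4 did not pass the filter on low values and was not tested. Intervals of 0.409 to 146-fold for Chrnb2 and 0.0215 to 8.37-fold for Chrna7 set the limits of what these libraries resolve.

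**Figure D5:**
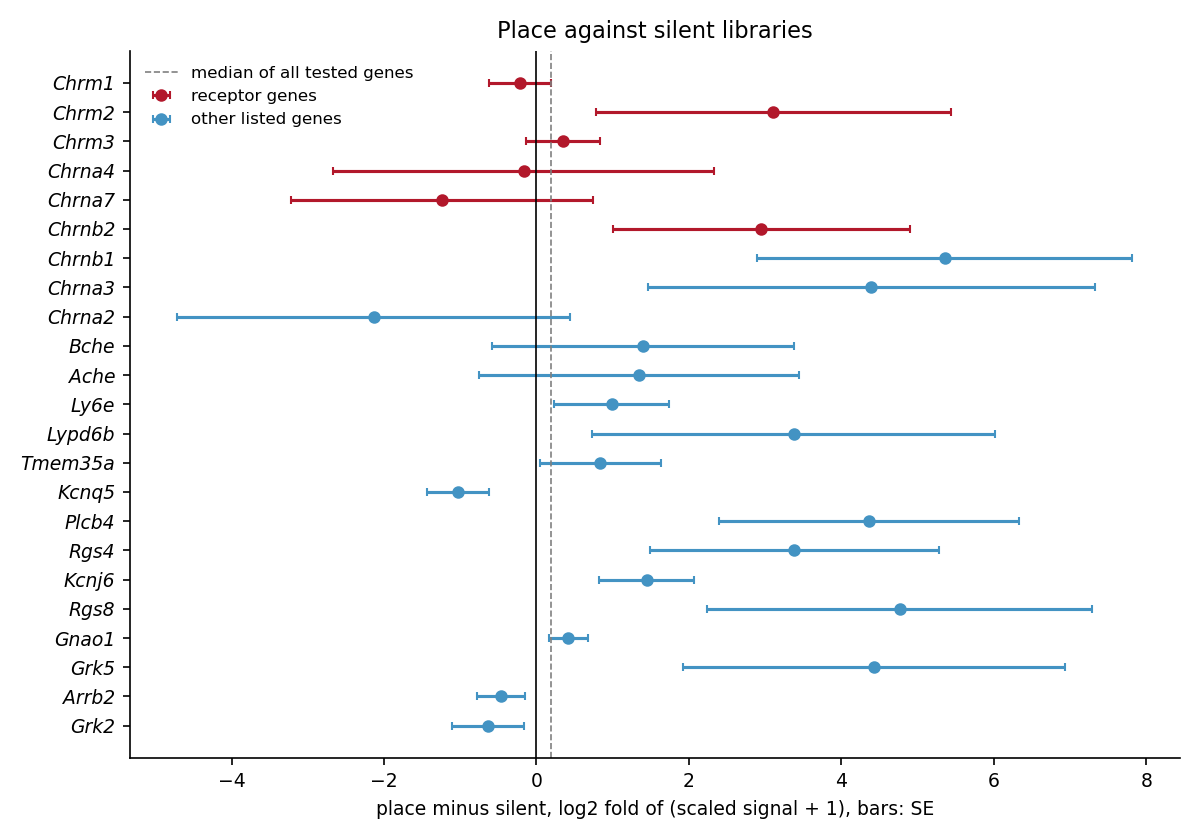
Log2 fold, place minus silent, on the log2(signal + 1) scale with its standard error, for the tested receptor genes and for up to 3 genes with the smallest p from each related list, with the median of all tested genes as a dashed line. Chrm1 (-0.21) and Chrm3 (0.35) had the smallest errors among the receptor genes, and no gene passed the adjusted threshold.

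The remaining nicotinic subunits were scattered in the same way. Of 13 other subunits, 6 were in the table and 4 were tested, 2 with a positive and 2 with a negative fold. Their median log2 fold was 1.89 against 0.20 for all tested genes, a median over 4 genes with folds from -2.13 (Chrna2) to 5.36 (Chrnb1). Chrnb1, best known as the beta subunit of the muscle receptor, had reads in 5 of 5 place libraries, at 32.91, 0.3489, 13.6, 6.507 and 3.29 RPM, and in 1 of 4 silent libraries, at 19.04 RPM. Its log2 fold was 5.36 ± 2.46 (SE; limma unadjusted p = 0.04967, adjusted p = 0.8624), and the silent value lay inside the place range. Chrna3, a subunit typical of autonomic ganglia, had reads in 4 place libraries, at 2.966 to 15.01 RPM, and in silent library 4, at 36.58 RPM. Its log2 fold was 4.394 ± 2.935 (SE; limma adjusted p = 0.8624), although its mean level was lower in place (7.505 RPM) than in silent libraries (9.145 RPM). Chrna2, typical of certain hippocampal interneurons, was at 6.479 to 8.474 RPM in silent libraries 1 to 3 and at 0 to 3.874 RPM in the others. Chrna5, an accessory subunit of receptors with Chrna4 and Chrnb2, ranged from 0 to 43.94 RPM in place and from 0 to 31.74 RPM in silent libraries.

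Genes that make and clear acetylcholine were sparse. Of 7 such genes, 5 were in the table and 2 were tested, and neither passed. Chat, which synthesizes acetylcholine, had reads in 1 library, silent library 2, at 4.136 RPM. Slc5a7, the choline transporter of cholinergic terminals, had reads in silent libraries 2 and 3, at 6.578 and 32.18 RPM. Both were at 0 in all 5 place libraries. Ache, the enzyme that breaks acetylcholine down, was at 2.07 to 18.49 RPM in place and 0 to 27.46 RPM in silent libraries. Bche, a related esterase, was at 0.2908 to 40.49 RPM in place and 0.0613 to 17.62 RPM in silent libraries.

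Among 8 genes of nicotinic receptor assembly and modulation, 7 were tested, 6 with a positive and 1 with a negative fold, none past the threshold, and their median log2 fold was 0.74 against 0.20 for all genes. Tmem35a (NACHO), a chaperone needed for assembly of Chrna7 receptors, was at 29.38, 27.51, 32.49, 37.68 and 15.49 RPM in place and 14.17, 13.65, 48.55 and 5.814 RPM in silent libraries. Its silent values spanned all the place values. Ly6e, of the family of small membrane-anchored proteins that includes nicotinic modulators, was highest in place library 3, at 484.2 RPM against 17.94 to 102.9 elsewhere, which was also the library with the high astrocyte sum. The part of astrocytes in that value was not tested. Lypd6b, of the same family, was at 0 to 37.87 RPM in place and 0 to 9.469 RPM in silent libraries.

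Downstream of the Gq-coupled receptors, 13 of 14 listed genes were tested, 9 with a positive and 4 with a negative fold. Their median log2 fold was 0.05 against 0.20 for all tested genes. None passed the adjusted threshold and 2 had an unadjusted limma p under 0.05, against 5.03% of all genes. Kcnq5, a subunit of the M-current channels, was at 36.3, 30.47, 28.09, 36.31 and 43.46 RPM in place and 68.79, 93.44, 82.39 and 46.15 RPM in silent libraries. All place values lay below all silent values, which held in this direction for 0.611% of tested genes. Its log2 fold was -1.03 ± 0.41 (SE; limma unadjusted p = 0.02649, adjusted p = 0.8624). Plcb4, a phospholipase C that Gq activates, was at 13.06, 20.53, 83.65, 12.06 and 32.53 RPM in place and 7.192, 0, 22.31 and 0.4472 RPM in silent libraries. Its groups overlapped through silent library 3, and its log2 fold was 4.37 ± 1.97 (SE; limma unadjusted p = 0.04618, adjusted p = 0.8624). Rgs4, which shortens Gq and Gi signals, was at 21.48 to 98.65 RPM in place and 0 to 51.2 RPM in silent libraries, with overlapping groups.

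All 14 listed genes of Gi/o coupling were tested, 9 with a positive and 5 with a negative fold, beside 58.94% positive among all tested genes. Their median log2 fold was 0.46 against 0.20 for all tested genes. Of the 14, 1 had an unadjusted limma p under 0.05, as did 5.03% of all tested genes. That gene was Kcnj6, a potassium channel subunit opened by Gi/o-coupled receptors, at 198.6, 173.2, 89.78, 31.54 and 105.9 RPM in place and 76.98, 47.74, 36.54 and 13.77 RPM in silent libraries. Place libraries 1, 2, 3 and 5 lay above every silent library and place library 4 below 3 of them. Its log2 fold was 1.45 ± 0.62 (SE; limma unadjusted p = 0.03879, adjusted p = 0.8624). Gnao1, the Go alpha subunit, was abundant throughout, at 172 to 323.9 RPM in place and 137.6 to 231.7 RPM in silent libraries. Rgs8, a regulator of Gi/o signals, had reads in 5 of 5 place and 2 of 4 silent libraries, at up to 63.85 and 28.2 RPM. Of 6 genes of receptor desensitization, all tested, 2 had a positive and 4 a negative fold, and none passed. Grk2, a kinase that phosphorylates active receptors, was at 28.07 to 52.06 RPM in place and at 109.9, 21.68, 58.73 and 105.7 RPM in silent libraries 1 to 4, so silent library 2 was below all place libraries and the other 3 above. Arrb2, an arrestin that uncouples receptors, was at 65.19 to 119.4 RPM in place and 92.57 to 170.2 RPM in silent libraries, and the related kinase gene Grk5 had reads in 4 place libraries and 1 silent library.

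Genes whose pattern over the 9 libraries was most like that of Chrm1 were the glycolytic enzyme gene Pgk1, the respiratory complex I gene Ndufb11 and the signal peptidase gene Spcs2, with Pearson correlations of log2 values of 0.94, 0.93 and 0.93. For Chrm3 they were the histone methyltransferase gene Kmt2a, the ribosomal protein gene Rpl13a and Prrc1, with 0.91, 0.91 and 0.90. These are the highest of 7863 genes over 9 libraries that share depth and preparation, and they are given as a description. Chrm3 ranked 7679th of the 7863 in likeness to Chrm1, near the bottom of the order.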

How the data were processed

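RNA from nuclei was measured in 9 libraries (5 place, 4 silent, grouped by title) made with a kit for polyadenylated RNA at low input, per the labels' protocols. STAR, HTSeq and the GRCm39 build are named in the submitters' processing notes, while no version, annotation or strand setting is stated. Values deposited for 31052 genes are a normalized signal. Within a gene they were multiples of a common step, which in 8824 of 8841 genes with reads in all libraries (99.8%) was within 0.01 log2 of a per-gene trimmed-mean factor. No scaling between libraries was found. For genes with zeros, part of the trimming rule was worked out from the values. Reads whole within 0.05 were recovered for 97.1% of genes, including all 7 receptor genes in the table. On simulated data made with the same factor rule, the procedure returned all reads of 1485 of 1485 genes. That check covers the inversion of the rule, and it cannot show that the submitters used this rule.

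Signal was scaled to a common total of recovered reads, a gene was kept if 4 or more libraries reached a value of 10, and limma 3.58.1 (R 4.3.3, intensity trend, pseudocount 1, no covariate) was fitted to 15217 genes with Benjamini-Hochberg adjustment. The limma procedure was tested on simulated data. The pseudocount shrinks folds of weakly expressed genes, and a fold can exceed the ratio of means where a library is close to 0. Depth was 14043021 to 22361378 recovered reads per library. Exon lengths and overlaps came from GENCODE M21 (GRCm38) and promoter windows from RefSeq (GRCm38.p6), builds other than that named in the notes. The named genes were the receptor genes, up to 3 genes per listed pathway with the smallest p, the 3 genes most like Chrm1 and Chrm3, and markers that were at 0 or moved with a receptor gene. Chrna5, Chat and Slc5a7 were named in addition after their values were seen. The members and lists were chosen with earlier results of these data known.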

Additional observations from a re-analysis of the deposited data

Results flagged for a closer look

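Chrm2 was at 5.64 RPM in silent library 3 and at 0 in the other 3 silent libraries, so the gap to the nearest library was the whole range of the group. Chrm4 was at 4.598 RPM in the same library and at 0 in the other 3. Chance sets apart about 1 in 20 groups by this measure, and 3 libraries tied at 0 meet it whenever the remaining one has any reads. Silent library 3 also had the highest interneuron marker sum, 1324 RPM. Of this, 643.8 RPM came from Vip, while the marker Sst was at 0 there.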

How the results depend on the processing

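Over 21 alternatives, none of the 6 tested genes among the receptor genes chosen by name passed the adjusted threshold. Chrm2 and Chrm3 kept a positive fold, at 0.93 to 6.52 and 0.03 to 1.602 log2. Chrm1 turned sign without place library 1 (0.020; leave-one-out range -0.37 to 0.020) and moved from -0.21 to -1.15 with Y-linked transcripts and to -0.52 with genes detected as a covariate. Chrna4 turned sign with voom weights (0.018), with Y-linked transcripts as a covariate (3.85) and without place library 3 (0.36), place library 5 (1.16), silent library 1 (0.96) or silent library 3 (0.42), over a leave-one-out range of -1.99 to 1.16. Without silent libraries 1 and 4 and place library 3 together, Chrna7 moved to 1.16 and Chrnb2 to -0.53. Leaving out 1 library at a time, Chrm2 ranged from 2.25 to 4.88, Chrm3 from 0.03 to 0.61, Chrna7 from -2.54 to -0.46 and Chrnb2 from 0.45 to 4.20. The number of genes called was 4 with voom weights and 225 with Y-linked transcripts as a covariate, a fit in which place library 1 is the one place library with them; it was 0 to 1 when single libraries were left out (1 without place library 1) and 0 under the other alternatives. The median fold of all genes moved from 0.20 to 0.01 with quantile normalization, -0.05 with genes detected as a covariate and 0.08 without silent library 1. The causes were not tested. The step from Chrm3 to Chrnb2 per kb passed with coding lengths and without any 1 library (1.67 to 2.36 log2). The planned negative binomial count tests were not run. No paired analysis was possible because the labels give the groups no shared replicate numbers. Chrm2, Chrm4, Chrna4, Chrna7 and Chrnb2 were each at or under 3 reads in 1 or more libraries, where a lower level was not detectable.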
